A study of Mus musculus with 4 samples.

Results

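The genes examined were Fosl1 and Junb, which encode subunits of the transcription factor AP-1, Klf4 and Klf6, which encode zinc finger factors of the Krüppel-like family, and the immediate early gene Ier3. They were taken by gene name from a table of Nrf2 chromatin immunoprecipitation with sequencing (ChIP-seq), and account for 5 of its 1940 gene rows. The tissue was mouse esophagus of strain C57BL/6. Libraries were made from Keap1KO mice, which lack Keap1, from wild-type mice, and from Nrf2KO mice, which lack Nrf2 itself. Each genotype had 1 library with the same Nrf2 antibody, so no difference between genotypes could be tested against replicates. The labels do not give the knockout alleles, the age of the animals or the number of animals behind a library. Signal from whole esophagus cannot tell fewer bound cells from less binding per cell, and ChIP signal does not measure which cell types were present. The Nrf2KO library shows what the antibody pulls down when its target is missing.

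Nrf2 is a basic leucine zipper factor that pairs with small Maf proteins and binds antioxidant response elements. Keap1 holds it low by directing it to the proteasome. AP-1 consists of pairs of Jun and Fos proteins, which are basic leucine zipper factors too, and its site shares the bases TGA with the antioxidant response element. Immediate early genes are transcribed within minutes of a growth or stress stimulus without new protein synthesis. In stratified squamous epithelium such as that of the esophagus, Klf4 is known for promoting the differentiation of cells that leave the basal layer. Loss of Keap1 in mice is known to cause thickening of the keratinized layer of the esophagus.

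The 5 genes held 6 called intervals, each of them called in Keap1KO and 0 in wild-type or Nrf2KO. Among all gene rows, 99.1% had an interval called in Keap1KO and 4.18% one called in wild-type, whereas the share for Nrf2KO was 0, so a call in Keap1KO is how most genes came to be listed. Fosl1, Junb, Klf4 and Klf6 had 1 interval each, and Ier3 had a pair of them 10592 bp apart. None of the 6 lay within 1 kb of the start of its own gene. Coordinates are those of the file, build mm10, and the start and end of all 5 genes equal those of the RefSeq annotation of GRCm38.p6. The file says whether an interval is within a gene or on which side of it, and does not divide genes into exons and introns. Interval positions fell on multiples of 16 bp for all 6 intervals, and for 95.5% of intervals in the table, so they are no finer than that.

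Fosl1 (GeneID 14283, chromosome 19, 5447698 to 5455938, plus strand) encodes Fra-1, a Fos-family subunit of AP-1. Its interval lay inside the gene, 1118 bp from the start, at position 5448816. The same interval is listed as downstream of Ccdc85b. Junb (GeneID 16477, chromosome 8, 84976909 to 84978748, minus strand) encodes a Jun-family subunit that pairs with Fos proteins. Its interval lay 1108 bp upstream of the start, at position 84979856. That interval is listed under Prdx2 too, which encodes a peroxiredoxin, an enzyme that removes hydrogen peroxide, and it lay 10208 bp from the start of Prdx2, beyond its end.

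Klf4 (GeneID 16600, chromosome 4, 55527137 to 55532475, minus strand) had the interval farthest from the start of its gene. It lay at position 55519808, which is 12667 bp from the start and 7329 bp beyond the end, and no other gene is listed with it. Klf6 (GeneID 23849, chromosome 13, 5861489 to 5870393, plus strand) encodes a broadly expressed Krüppel-like factor. Its interval lay inside the gene, 1151 bp from the start, at position 5862640, and is listed as upstream of 1700016G22Rik as well. Ier3 (GeneID 15937, chromosome 17, 35821713 to 35822911, plus strand) encodes a small protein that modulates cell survival. Its upstream interval lay 9297 bp before the start, at position 35812416. Its downstream interval lay at position 35823008, 97 bp beyond the end. The downstream interval was 349 bp upstream of the start of Flot1, which encodes flotillin 1, a scaffold protein of membrane microdomains, and was thus nearer to that start than to the start of Ier3.

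**Figure D1:**
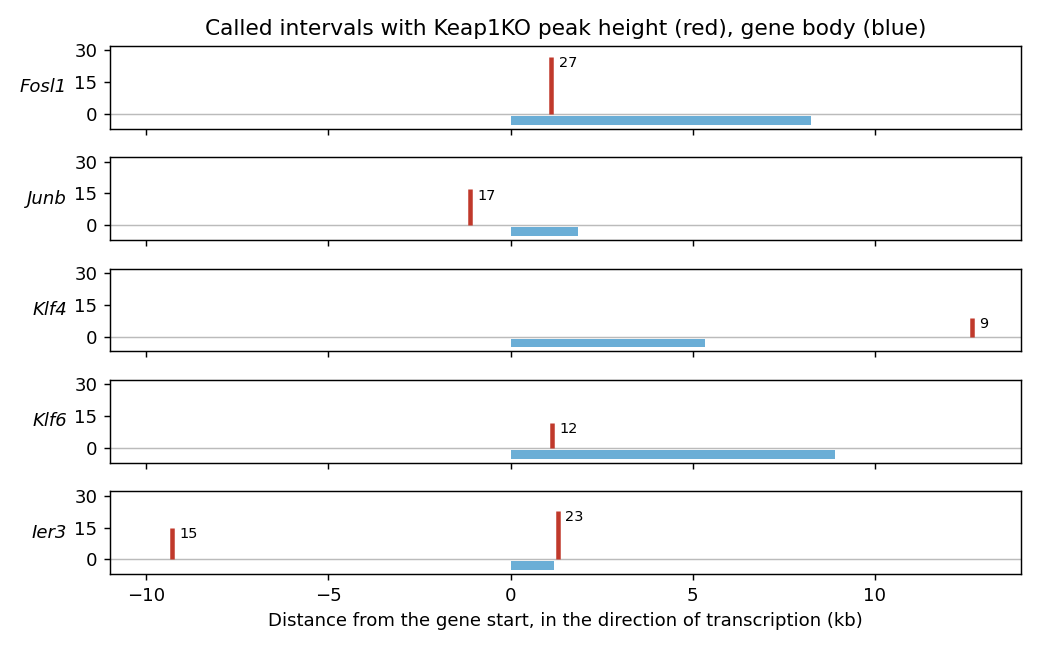
Position of the called intervals of each gene (red lines, x axis in kb from the gene start in the direction of transcription; y axis, Keap1KO peak height in the deposited signal) and the gene body (blue bar). Heights run from 9 at Klf4 to 27 at Fosl1, and the intervals of Fosl1, Junb, Klf6 and the downstream one of Ier3 lie between 1108 and 1295 bp from the gene start.

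The bases just upstream of a gene start were read for 4 of the 5 genes from the RefSeq promoter table of GRCm38.p6, and Fosl1 had no entry. They are shown for the 3 genes with an interval within 1.3 kb of the start, to set the start beside the interval, and for Klf2, a related factor whose interval lay inside the window. Each run is the 250 bases before the start, 5′ to 3′ on the strand of the gene, with matches to TGACNNNGC in capitals. The intervals themselves lay outside the windows of the 4 member genes, by 858 bp at Junb, 1152 bp at Klf6, 1296 bp at Ier3 and 12668 bp at Klf4.
Junb (chr8:84978749-84978998, minus strand): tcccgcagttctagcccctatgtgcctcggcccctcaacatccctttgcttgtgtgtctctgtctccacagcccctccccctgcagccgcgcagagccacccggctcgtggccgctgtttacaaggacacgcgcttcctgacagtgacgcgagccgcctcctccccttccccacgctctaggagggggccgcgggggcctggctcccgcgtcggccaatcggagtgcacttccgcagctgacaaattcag
Klf6 (chr13:5861239-5861488, plus strand): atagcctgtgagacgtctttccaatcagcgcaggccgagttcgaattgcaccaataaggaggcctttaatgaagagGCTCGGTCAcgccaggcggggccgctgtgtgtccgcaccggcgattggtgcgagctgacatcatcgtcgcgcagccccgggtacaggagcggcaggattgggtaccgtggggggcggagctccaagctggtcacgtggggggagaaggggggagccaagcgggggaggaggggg
Ier3 (chr17:35821463-35821712, plus strand): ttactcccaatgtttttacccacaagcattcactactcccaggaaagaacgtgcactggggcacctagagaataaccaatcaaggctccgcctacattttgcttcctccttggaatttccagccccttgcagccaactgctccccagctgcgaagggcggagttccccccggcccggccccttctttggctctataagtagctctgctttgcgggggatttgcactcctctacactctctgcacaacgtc
Klf2 (chr8:72318812-72319061, plus strand): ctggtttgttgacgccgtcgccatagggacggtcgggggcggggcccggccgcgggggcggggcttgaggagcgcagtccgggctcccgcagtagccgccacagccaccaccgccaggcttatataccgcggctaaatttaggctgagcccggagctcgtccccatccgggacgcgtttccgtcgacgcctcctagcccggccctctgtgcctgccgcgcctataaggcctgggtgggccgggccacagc

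The motifs searched on both strands were TGACNNNGC, the core of the antioxidant response element, its form TGACTCAGC, and TGANTCA, the AP-1 site. TGACTCAGC contains a match to each of the others. Klf6 had 1 match to TGACNNNGC, on the opposite strand at 5861315 to 5861323 of chromosome 13, 174 to 166 bases before the start, which reads TGACCGAGC there and appears above as its reverse complement. It lay 1321 bp from the called interval. Junb, Klf4, Ier3 and Klf2 had no match to any of the 3 in these windows, and Klf6 none to the other two. Over all 32851 windows of 250 bases, 10.2% held TGACNNNGC, 0.390% TGACTCAGC and 6.75% TGANTCA. The immediate early gene Maff has 3 windows in the table. The window that holds its interval had no match to the 3 motifs, and another, 868 bp from the interval, held 1 match to TGACNNNGC, which reads TGACTCTGC. Sequence under the intervals of the 5 genes was not analysed here.

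Peak heights are the deposited average signal of a merged region in each library, with no stated unit and unknown depth. Fosl1 was the tallest of the 6 regions in Keap1KO. Its height was 27 in Keap1KO, against 4 in wild-type and 2 in Nrf2KO. Keap1KO thus stood apart, and wild-type and Nrf2KO lay 2 units from each other. Among all 1460 loci (regions listed under the same genes count as 1), 82.9% were lower than Fosl1 in Keap1KO, 26.2% were lower in wild-type and 10.3% in Nrf2KO.

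Junb had a height of 17 in Keap1KO, against 3 in wild-type and 4 in Nrf2KO. Here the wild-type library was the lowest of the 3. At both AP-1 genes the Keap1KO height was above the other libraries by at least 13 units as deposited. Fosl1 was 10 units taller than Junb there, and the heights of these genes differed by 1 unit in wild-type and 2 in Nrf2KO. Such a gap was not limited to the AP-1 genes. The downstream region of Ier3 stood 16 units above wild-type and 15 above Nrf2KO, against 14 and 13 at Junb. Gaps were smaller at Klf4, Klf6 and the upstream region of Ier3. Over all loci the median Keap1KO height was 18, with medians of 5 for wild-type and 4.33 for Nrf2KO. The share of loci with a gap of at least 13 units was not computed.

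Klf4 had the lowest of the 6 heights in Keap1KO, with 9, against 3 in wild-type and 1 in Nrf2KO. No locus called in Keap1KO was lower than that, and 3 of the 1448 called there were at 9. Klf6 had a height of 12 in Keap1KO, against 1 in wild-type and 2 in Nrf2KO. Its wild-type height was the lowest of the 6 regions, and 0.685% of all loci were lower in wild-type. The Krüppel-like factor genes were thus the lower end of the group in Keap1KO, where 0.411% of loci were lower than Klf4 and 6.23% lower than Klf6.

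The row of Ier3 gives the mean over its pair of regions, 19 in Keap1KO, against 7.5 in wild-type and 6 in Nrf2KO. The downstream region is listed with Flot1 too, whose row gives its height alone, so both heights could be solved. The upstream region had 15 in Keap1KO, against 8 in wild-type and 4 in Nrf2KO. The downstream region had 23 in Keap1KO, against 7 in wild-type and 8 in Nrf2KO. These are opposite orders of the low libraries within 1 gene, with wild-type 4 units above Nrf2KO upstream and 1 unit below it downstream. The wild-type height upstream, 8, was the tallest of the 6 in that library, and the Nrf2KO height downstream, 8, the tallest in Nrf2KO.

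**Figure D2:**
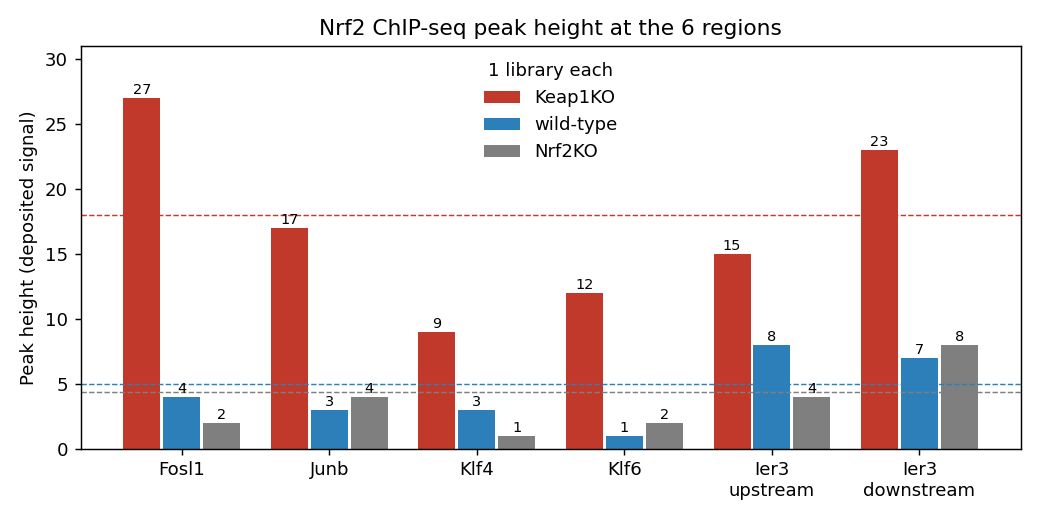
Peak height (y axis, deposited signal) at the 6 regions in Keap1KO (red), wild-type (blue) and Nrf2KO (grey), 1 library each. Dashed lines are the medians over all 1460 loci, 18 in Keap1KO, against 5 in wild-type and 4.33 in Nrf2KO. Fosl1 and the downstream region of Ier3 exceed the Keap1KO median.

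Over the 6 regions the median height was 16 in Keap1KO (9 to 27), against 3.5 in wild-type (1 to 8) and 3 in Nrf2KO (1 to 8). Over all loci the medians were 18 in Keap1KO, against 5 in wild-type and 4.33 in Nrf2KO. At 5 of the 6 regions the nearest start of a listed gene was more than 1 kb away, as at 1006 of the 1460 loci, whose median heights were 18 in Keap1KO, against 4.5 in wild-type and 4 in Nrf2KO. The exception was the downstream region of Ier3, because of Flot1.

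**Figure D3:**
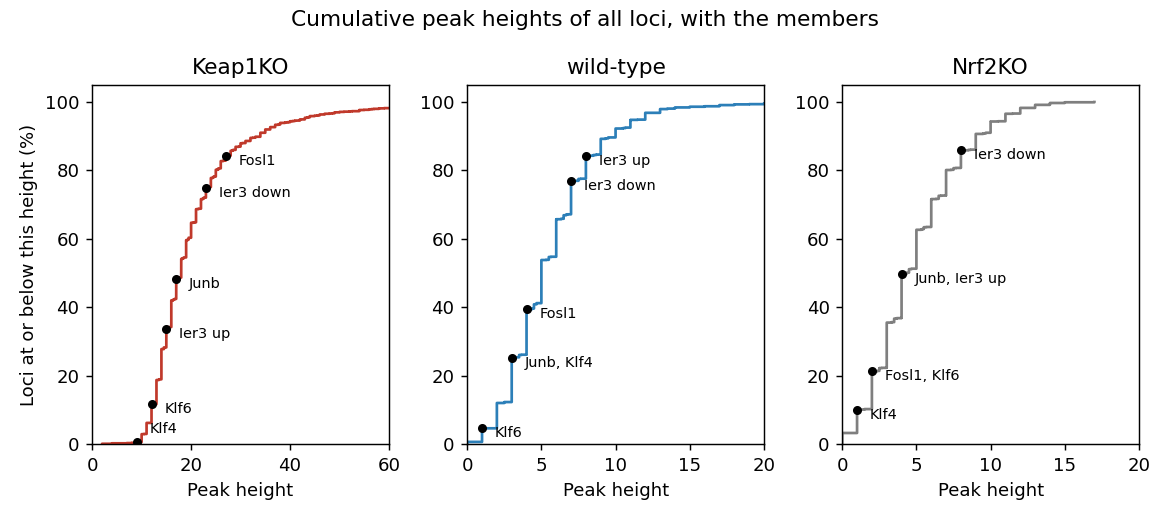
Share of all 1460 loci (y axis, %) at or below each peak height (x axis, deposited signal) in Keap1KO, wild-type and Nrf2KO, with the 6 regions as black points (Ier3 up and Ier3 down are its upstream and downstream regions). The axes end at 60 and 20, below the tallest loci in Keap1KO and wild-type. Klf4 sits at the foot of the Keap1KO curve and Fosl1 in its upper part, whereas in Nrf2KO both lie low.

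Keap1KO over wild-type, the comparison of Nrf2 freed from Keap1 with the normal state, was computed as the log2 ratio of heights with a pseudocount of 1. Klf6 had the largest value, 2.70, a 6.50-fold higher height in Keap1KO on that scale. Fosl1 followed with 2.49 (5.60-fold) and Junb with 2.17 (4.5-fold). The downstream region of Ier3 had 1.58 (3.00-fold), Klf4 1.32 (2.5-fold) and the upstream region of Ier3 0.83 (1.78-fold). At least 2-fold higher in Keap1KO were 5 of the 6 regions, against 88.0% of all loci. The 6.50-fold at Klf6 rests on a wild-type height of 1, and at such heights a single unit moves the ratio strongly.

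The median log2 ratio of Keap1KO over wild-type was 1.88 over the 6 regions and 1.74 over all loci. Over the loci more than 1 kb from a start it was 1.85. Klf6, Fosl1 and Junb lay above that median of all loci by 0.96, 0.75 and 0.43. The downstream region of Ier3, Klf4 and the upstream region of Ier3 differed from it by −0.15, −0.42 and −0.91. Keap1KO was the higher library at all 6 regions as deposited, against 98.8% of all loci. With heights scaled to equal library medians it was higher at 3 of them, Klf6, Fosl1 and Junb. The median log2 ratio of all loci was then 0.07, so loci fall on both sides of 0 by construction. The loci were mostly listed because of a call in Keap1KO, which selects its heights upwards, and the ratio of all loci may hold a difference in depth that was not tested.

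Keap1KO over Nrf2KO sets the freed state against the antibody background. Fosl1 had the largest log2 ratio, 3.22 (9.33-fold), and 90.1% of all loci had a lower one. Klf4 was next with 2.32 (5-fold), on heights of 9 and 1. Klf6 had 2.12 (4.33-fold), Junb 1.85 (3.60-fold), the upstream region of Ier3 1.68 (3.20-fold) and the downstream region 1.42 (2.67-fold). All 6 regions were at least 2-fold higher in Keap1KO, against 85.3% of all loci. All 6 were higher in Keap1KO, against 99.0% of all loci. With equal library medians 4 of the 6 were, and both regions of Ier3 were lower, where the median log2 ratio of all loci was 0.07 by construction of that scaling.

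The median of this ratio was 1.98 over the 6 regions, 1.91 over all loci and 2.17 over the loci more than 1 kb from a start. Klf6 and Klf4 changed places between the comparisons. Keap1KO was 6.50-fold above wild-type at Klf6 and 2.5-fold at Klf4, and 4.33-fold and 5-fold above Nrf2KO. Both comparisons use the same Keap1KO library, and the heights of the other libraries at these genes are 1 to 3.

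Wild-type over Nrf2KO asks whether Nrf2 signal was above the antibody background with Keap1 present. Klf4 had a log2 ratio of 1.00 (2.00-fold), the upstream region of Ier3 0.85 (1.80-fold) and Fosl1 0.74 (1.67-fold). Wild-type was below Nrf2KO at the downstream region of Ier3 (−0.17), at Junb (−0.32) and at Klf6 (−0.58). Wild-type was thus higher at 3 of the 6, against 53.8% of all loci, and lower at 3, against 35.8%. At equal library medians each region kept its side of 0. At least 2-fold higher was 1 region, Klf4, against 18.8% of all loci, on heights of 3 and 1. The medians were 0.28 over the 6 regions, 0.19 over all loci and 0.32 over the loci more than 1 kb from a start. The size of the difference that repeat libraries of a genotype would give at such heights was not measured.

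**Figure D4:**
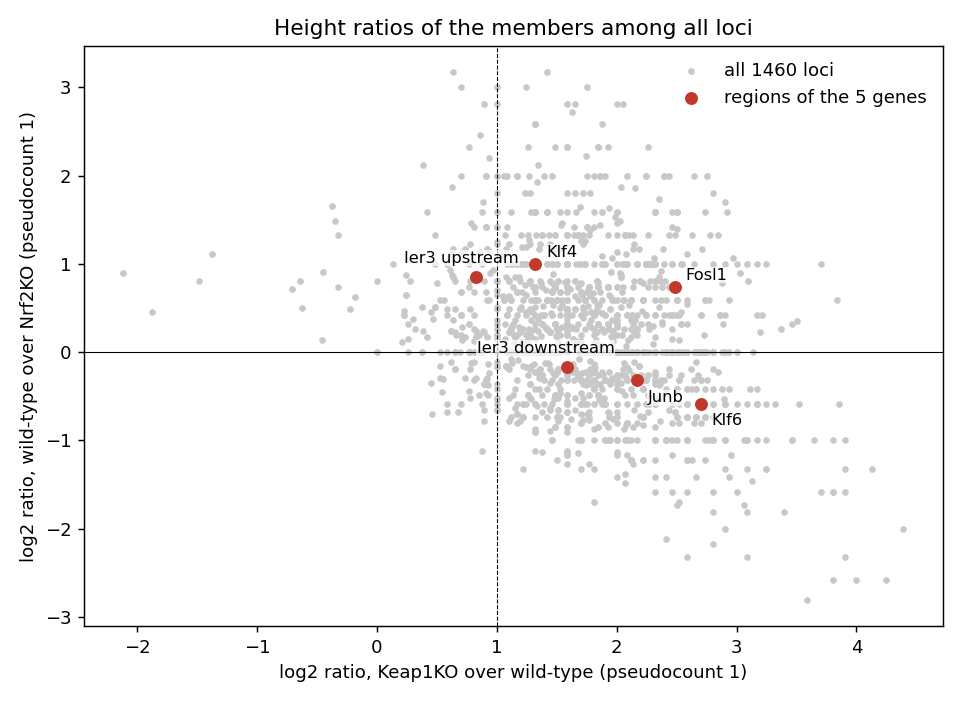
Log2 height ratio of wild-type over Nrf2KO (y axis) against that of Keap1KO over wild-type (x axis), pseudocount 1, for all 1460 loci (grey) and the 6 regions (red). The dashed line marks 2-fold, and the axes share the wild-type library. All regions except the upstream one of Ier3 lie right of the dashed line, 3 above and 3 below 0 on the y axis.

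Loci with the most similar heights were found by the Euclidean distance over log2(height + 1) in the 3 libraries. For Fosl1 they were Kcnj6 (26 in Keap1KO, against 4 in wild-type and 2 in Nrf2KO), Abcc5 (25 in Keap1KO, with the wild-type and Nrf2KO heights of Kcnj6) and St3gal3. For Junb they were Ctr9, D830013O20Rik and Ddr2, with 16 to 18 in Keap1KO, against 3 in wild-type and 4 in Nrf2KO. Klf4 was nearest to 1700064J06Rik, Ethe1 and Igsf11, each with 11 in Keap1KO, against 3 in wild-type and 1 in Nrf2KO. Klf6 had 3 loci of identical heights, Glg1, Trim2 and Vps13d. The upstream region of Ier3 had 1 of identical heights, Fndc3b, followed by Fgd3 and Neurl1a, and the downstream region was nearest to Pafah1b1, Gpatch1 and Lrrfip2. Within a distance of 0.5 there were 127 of 1454 other loci around Junb, 107 and 77 around the downstream and upstream regions of Ier3, 37 around Fosl1, 18 around Klf6 and 10 around Klf4.

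The families of the 5 genes were looked up in lists of names. Of 13 AP-1 subunit genes 2 had a row, Fosl1 and Junb (15.4%). Of 17 Krüppel-like factor genes 3 had one, Klf2, Klf4 and Klf6 (17.6%). Of 26 other immediate early genes 4 had one, Ier3, Ier5, Maff and Plk3 (15.4%). Of all protein-coding genes in RefSeq 7.67% had a row. Being listed mostly reflects a call in Keap1KO, and genes without a row were not analysed here. The 5 genes were themselves chosen from the listed genes, and make up 2, 2 and 1 of the list genes with a row. The shares of the lists therefore cannot be read as enrichment over 7.67%.

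Klf2, a Krüppel-like factor of endothelial and immune cells, had an interval 238 bp upstream of its start on chromosome 8, with a height of 13 in Keap1KO, against 5 in wild-type and 9 in Nrf2KO. Keap1KO was 2.33-fold above wild-type and 1.40-fold above Nrf2KO there. Maff encodes a small Maf protein, a partner of Nrf2, and had 26 in Keap1KO, against 11 in wild-type and 17 in Nrf2KO, 190 bp upstream of its start. Ier5 had 12 in Keap1KO, against 2 in wild-type and 6 in Nrf2KO, and Plk3, a polo-like kinase gene, had 23 in Keap1KO, with 6 in wild-type and 7 in Nrf2KO. At Klf2, Ier5 and Maff, Keap1KO was less than 2-fold above Nrf2KO (1.40-fold, 1.86-fold and 1.5-fold), and at Plk3 it was 3.00-fold above it. Of all loci, 85.3% were at least 2-fold higher in Keap1KO than in Nrf2KO. At the 6 regions of the 5 genes Keap1KO was 2.67-fold to 9.33-fold above Nrf2KO, a range that includes Plk3. No test of a difference is possible with 1 library per genotype. In wild-type these 4 loci were all below Nrf2KO, against 35.8% of all loci. With equal library medians the Keap1KO height was lower than the Nrf2KO height at Klf2, Ier5, Maff and Plk3. The median log2 ratio of all loci was then 0.07, so loci fall on both sides of 0 by construction.

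For comparison, Nrf2 pathway regulators had 5 of 9 genes with a row and median heights of 35 in Keap1KO, against 10.5 in wild-type and 7.67 in Nrf2KO. Nfe2l2, which encodes Nrf2, had 78 in Keap1KO, against 17 in wild-type and 7 in Nrf2KO. Mafg, Bach1 and Keap1 had 43.7, 35 and 19.3 in Keap1KO, which are means over 3, 2 and 3 regions. Fosl1, the tallest of the 6 regions, was below Nfe2l2 and above Maff in Keap1KO, each a single region as well. It was below the means of Mafg and Bach1 and above that of Keap1, whose separate regions could not be solved. Genes of basal squamous cells had 4 of 10 with a row, with medians of 18 in Keap1KO, against 3 in wild-type and 4 in Nrf2KO. Among them were Trp63, the basal cell master regulator, with 18 in Keap1KO, against 3 in wild-type and 2 in Nrf2KO, and Krt14, a basal keratin, with 18 in Keap1KO, against 3 in wild-type and a listed 0 in Nrf2KO. Pax9 had 16 in Keap1KO, against 3 in wild-type and 6 in Nrf2KO. Notch1 had 36 in Keap1KO, against 9 in wild-type and 11 in Nrf2KO. The heights of Junb lay within 2 units of those of Trp63 in each library, with wild-type and Nrf2KO in opposite order. The share of all loci that lie as close to Junb in units was not computed, so this closeness cannot be called particular to Trp63. The Trp63 interval lay 216075 bp from the start of its gene, 7752 bp beyond the end.

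**Figure D5:**
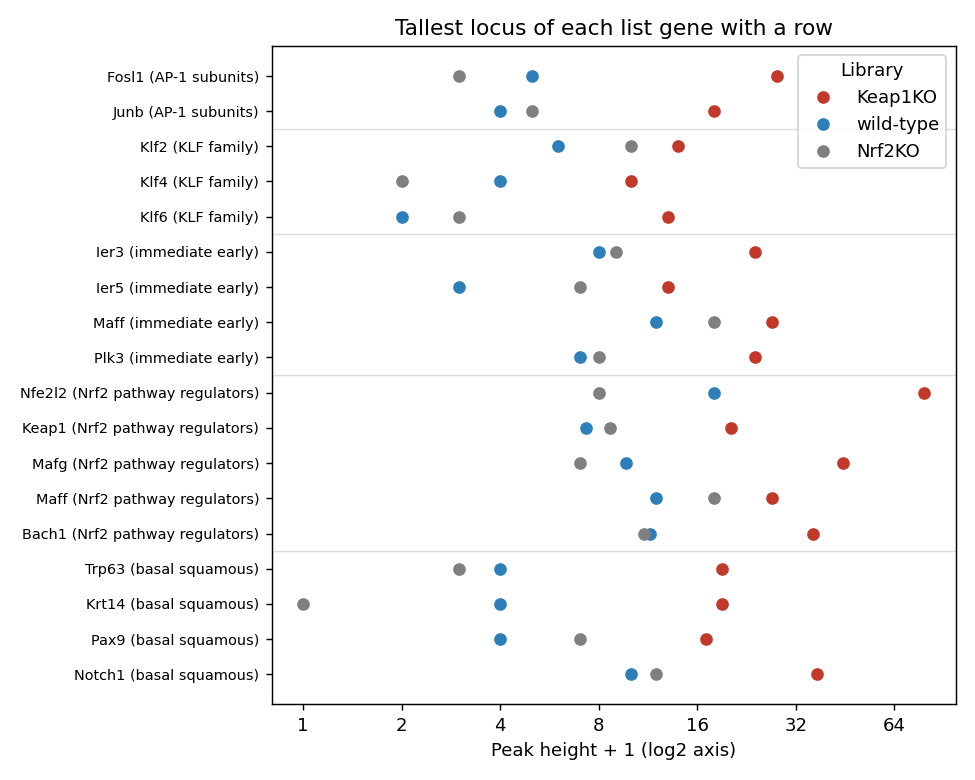
Peak height + 1 (x axis, log2 scale) of the tallest locus of each list gene with a row, in Keap1KO (red), wild-type (blue) and Nrf2KO (grey), grouped by list. Maff stands in both the immediate early and the regulator lists. Heights of Keap1, Mafg and Bach1 are means over their regions. Red points lie right of the others in every row, and the gap to grey is narrowest at Klf2, 13 against 9.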

How the data were processed

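The authors deposited 1 table of genes with called intervals. The submitters' processing notes name BWA, MACS2 2.1.0 and the build mm10. Parameters, depth and any scaling are not given in the sources used. Per the file headers, its signal columns hold an average peak height per gene and library, and other columns flag a called interval. The input library was not analysed here. In the 1681 genes with 1 active region, 100% of heights were whole numbers. The 1727 intervals were merged to the 1684 active regions the rows state (up to 704 bp apart), and heights were solved by least squares into 1460 loci, with a largest residual of 0.00186. The solver was tested on simulated data. Interval positions came from each gene's start, strand and listed distance. Of the 1940 rows, 1878 matched RefSeq by identifier.

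Log2 ratios used a pseudocount of 1, which understates changes at low heights, and 2-fold describes size only. With 1 library per genotype there are no tests, errors or counting intervals. A gene in a list was represented by its tallest locus over the libraries, and a locus of several regions has their mean height. Named are the 5 genes, list genes with a row, genes sharing their intervals or next to them, and the 3 nearest loci by height. Members and lists were chosen with earlier results of these data known. Python 3.11.15, numpy 2.4.6, pandas 2.3.3 and matplotlib 3.10.9 were used.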

Additional observations from a re-analysis of the deposited data

How the results depend on the processing

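No paired analysis was possible because there are no replicates of any genotype. Of 78 log2 ratios of single regions under an alternative, 6 changed sign. The pseudocounts and the filter on mean height keep the sign of a ratio by construction. So does the gene row at the 4 genes with 1 region. Only equal library medians, or the gene row at Ier3, could change a sign, so 6 of 78 does not measure stability. With heights scaled to equal library medians, 5 ratios changed sign. These were Keap1KO over wild-type at the upstream region of Ier3 (−0.80), at Klf4 (−0.19) and at the downstream region of Ier3 (−0.11), and Keap1KO over Nrf2KO at the upstream (−0.12) and downstream (−0.47) regions of Ier3. The other was wild-type over Nrf2KO at the downstream region of Ier3, −0.17 by region and 0.28 by the gene row, which averages both regions. Scaling to equal medians moved the median log2 ratio of all loci from 1.74 to 0.07 for Keap1KO over wild-type. For Keap1KO over Nrf2KO it moved from 1.91 to 0.07. This scaling left 1 of the 6 regions at least 2-fold higher in each, against 9.11% and 17.7% of all loci. For wild-type over Nrf2KO it left 0, against 13.3%. The filter on mean height, at least 9.33, kept 2 of the 6 regions and 767 of all loci. Both regions were at least 2-fold higher in Keap1KO over wild-type, against 86.2% of the kept loci, and over Nrf2KO, against 82.4%. In wild-type over Nrf2KO 0 of them were, against 15.6%. A pseudocount of 5 left 4 of the 6 regions 2-fold higher for Keap1KO over wild-type, against 72.5% of all loci. It left 0 when wild-type was set over Nrf2KO, against 3.97%. Of the 6 calls in Keap1KO, 2 had at least the median called height of 18, and 5 reached 12. Among all loci, 6.23% were lower than 12 in Keap1KO, so most loci reach that height. The list genes with a row were 9 of 56, the 5 genes themselves included, and 8 within 10 kb of a start. By construction the filter keeps fewer regions, a pseudocount of 5 pulls ratios towards 0, and equal medians take out a shift common to all loci; otherwise the cause was not tested. With the depth of the libraries unknown, every ratio between them is limited.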

Other observations

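The next listed region was far from most of the 6. Next to Fosl1 it lay 102896 bp away, at Cst6 and Catsper1, with 22 in Keap1KO and 7 in both wild-type and Nrf2KO. Next to Junb it lay 55.9 kb away, at Tnpo2 and 2310036O22Rik, with 12 in Keap1KO, 3 in wild-type and a height of 7 in Nrf2KO. Klf4 had Gm12505 at 110 kb, with 17 in Keap1KO, against 2 in wild-type and 3 in Nrf2KO, which in Keap1KO is taller than Klf4 itself. Klf6 had none nearer than Gm5444, 1091 kb away, with 22 in Keap1KO, against 5 in wild-type and 11 in Nrf2KO. At these 4 neighbours the Nrf2KO height was at or above the wild-type height, with equal heights next to Fosl1. Wild-type was the higher of these libraries at 53.8% of all loci. At Junb and Klf6 themselves Nrf2KO was the higher, whereas at Fosl1 and Klf4 wild-type was.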
